A study of Sorghum bicolor with 24 samples.

Results

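Nitrate enters and moves through plant roots by transporters of the NRT2 family and of the NRT1/PTR family (NPF). In sorghum roots, 96 genes of these families were followed through 2 experiments in 8 groups of 3 RNA-seq libraries. A gene was included when its deposited protein description named it an NRT1/PTR family protein or a high-affinity nitrate transporter, a label that rests on similarity to a known protein, mostly of Arabidopsis or rice. These were 96 of the 35907 genes that the P table lists, and the GR table holds the same 96 among its 35842. By their closest protein, 5 belonged to NRT2, 2 to its partner family NAR2, 4 to NPF1, 8 to NPF2, 7 to NPF3, 16 to NPF4, 20 to NPF5, 7 to NPF6, 5 to NPF7 and 22 to NPF8.

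The P table holds roots labelled phosphorus deficiency and roots labelled mock, each at 4 and 7 days. The GR table holds roots treated with GR245DS, a synthetic strigolactone analogue, and roots labelled mock, each at 3 h and 6 h. The sources used here give no cultivar, plant age, nutrient solution or dose of GR245DS, and do not say whether replicates are separate plants. The p-values therefore measure the spread between these libraries, which may be technical.

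NRT2 proteins carry nitrate with high affinity when little is available, and many of them need a NAR2 partner to reach the plasma membrane. NPF proteins are more varied: among them are low-affinity nitrate carriers, the dual-affinity transporter and nitrate sensor NPF6.3 of Arabidopsis (also called NRT1.1 or CHL1), peptide transporters, and carriers of abscisic acid, gibberellin and glucosinolates. Nitrogen and phosphorus signalling are coupled in plants, through repressors of the NIGT1 family among other routes.

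P libraries held 32631226 to 45292506 counts each and GR libraries 31677623 to 38706195. At these depths 3 counts correspond to at most 0.0991 CPM (counts scaled to a common library size with TMM factors). Genes that phosphate shortage usually induces went against the labels of the P table. All 6 tested SPX genes, which signal phosphate status, were lower at both days in libraries labelled P deficiency, as were 9 of 10 tested PHT1 phosphate transporters, with 1 higher. Summed over the 6 SPX genes, the libraries labelled P deficiency held 58.4 to 67.6 CPM, those labelled mock at days 4 and 7 held 2375 to 3011 CPM, and the 12 libraries of the GR table held 41.5 to 77.3 CPM. Whether the labels of these groups were exchanged was not tested and the sources used here do not settle it. An exchange would turn every direction given between the 2 labels of the P table. Differences between the days within mock would keep their direction and belong to the other label. Directions follow the deposited labels, and "higher" means higher in the libraries labelled P deficiency or GR245DS. Marker lists of tissues and cell types moved too: 22 leaf and photosynthesis genes summed to 331 to 465 CPM in libraries labelled P deficiency and 913 to 1187 CPM in their mock, with 3 higher and 3 lower of 16 tested at day 4 and 4 higher and 3 lower at day 7. The highest of these genes in every P library was phosphoenolpyruvate carboxylase 1 (Sobic.004G106900), which was lower at both days. Its mean was 260 CPM with the P deficiency label and 1019 CPM in mock at day 4, and the day 7 means were 221 and 815 CPM. Of the leaf-defining chlorophyll a-b binding genes none was called lower, and CP26 (Sobic.005G087000) was higher, at 1.64 against 0.498 CPM and 3.72 against 0.960 CPM, as was chlorophyll a-b binding protein 1 (Sobic.002G288300), at 1.67 against 0.0889 CPM and 1.55 against 0.437 CPM. The Rubisco small chain gene (Sobic.005G042000) had 0 counts in 11 of the 12 P libraries. The 17 O-methyltransferase genes of the root hair compound sorgoleone summed to 201 to 278 CPM against 531 to 911 CPM, with 4 and 6 of 9 tested lower. The 4 CASP genes of the root endodermis, 3 of them lower at day 4 and none at day 7, summed to 54.4 to 95.2 CPM against 72.0 to 155 CPM. The part of these shifts in the results below was not tested, and in bulk roots fewer cells of a type and less RNA per cell cannot be told apart.

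A large share of the transcript of these families came from few genes. On the authors' FPKM scale, which corrects for gene length, the 5 highest members held 45.7% of the summed P table level and 47.8% of that of the GR table. Averaged over all 12 libraries, the order was led in the P table by NPF5.10 (Sobic.003G371000) at a mean of 169 FPKM, NPF2.11 (Sobic.001G133900) at 114, NPF6.3 (Sobic.001G302800) at 75.8, NAR2.1 (Sobic.004G202400) at 75.1 and NPF4.3 (Sobic.005G090600) at 40.3. The order differed between groups: NPF2.11 led in mock at both days, with 159 against 83.0 FPKM for NPF5.10 at day 4 and 137 against 132 FPKM at day 7, the latter within the SD of 23.2 and 19.1 FPKM. NPF5.10 led where labelled P deficiency, at 125 FPKM at day 4 and 336 FPKM at day 7. Its day 4 lead over NAR2.1 at 117 FPKM and NPF6.3 at 110 FPKM was within its SD of 23.2 FPKM. In the GR table the order was led by NRT2.1 (Sobic.004G009500) at 155 FPKM, the same NPF6.3 gene at 136, NPF8.3 (Sobic.001G282100) at 96.8, NPF2.11 at 92.6 and a second NRT2.1 gene (Sobic.004G009400) at 77.3. Of the leading pair, NPF6.3 was the higher in mock at 6 h and with GR245DS at 3 h. The group SD of this pair ran from 72.4 to 142 FPKM. At the other end, 8 members had 0 counts in all 24 libraries, among them 3 of the 5 NPF7 genes. Tests for differences covered 73 members of the P table and 76 of the GR table, the others having too few counts, at most 20 in any library.

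Most of the 73 tested members differed at each day of the P table, in both directions. At day 4, 26 were higher and 16 lower (edgeR quasi-likelihood test, adjusted p under 0.05 over 25137 genes), which is 57.5% of the tested members beside 38.6% of all tested genes. In the higher direction these were 35.6% beside 20.3%, and in the lower direction 21.9% beside 18.4%. At day 7, 22 were higher and 20 lower, again 57.5%, beside 35.6% of all genes (17.4% higher, 18.2% lower). Median log2 fold changes were 0.19 and -0.05 over the members and 0.02 and -0.02 over all genes at days 4 and 7. Of the members, 21 were higher at both days and 13 lower at both, and no member was called in opposite directions at the 2 days. The share of all tested genes called alike at both days was not computed, so these counts are not set apart from it. At day 4, 13 of the 73 tested members were higher at least 2-fold, beside 8.14% of all tested genes. Among those called higher these were 13 of 26 members, beside 2046 of 5094 genes. Without the first day 4 library labelled P deficiency, 17 of 74 tested members were called higher, beside 3427 of 25558 genes. Filtering on low counts keeps a gene that is high in 1 group only, so these shares describe the tested members and not all 96.

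**Figure D1:**
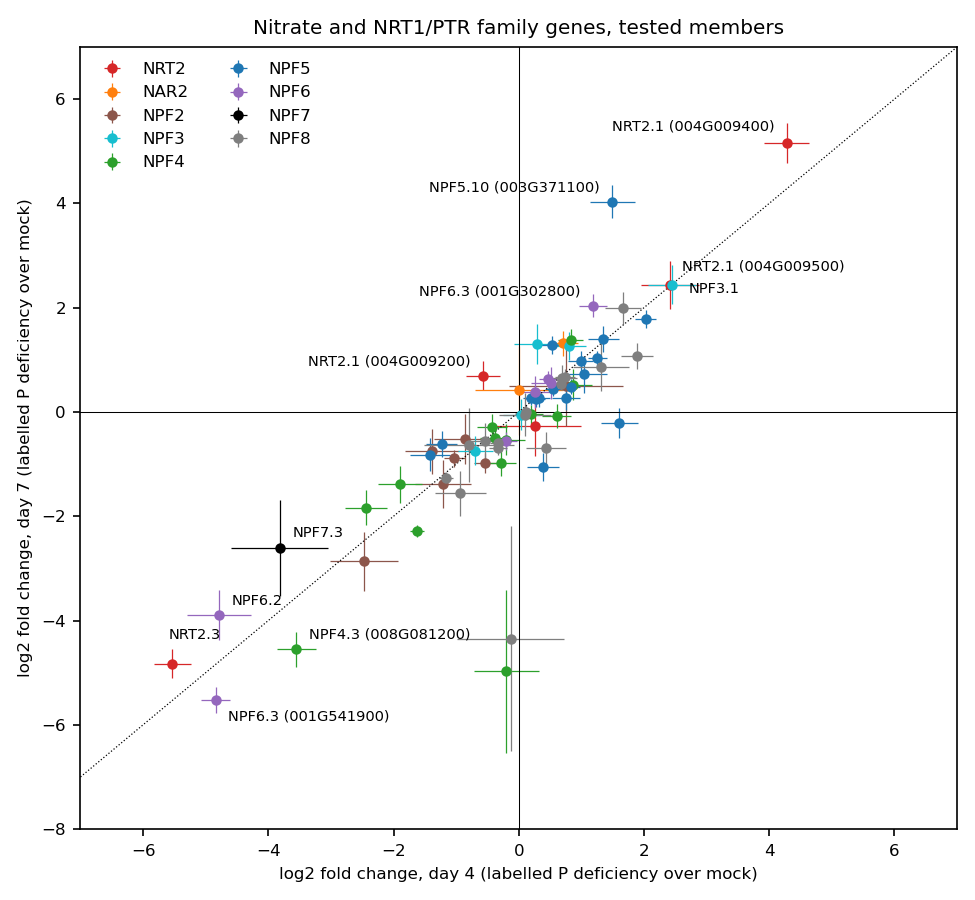
Log2 fold change of the 73 tested members at day 4 (horizontal) and day 7 (vertical), labelled P deficiency over mock, with standard errors as bars, coloured by subfamily, the dotted line marking equal change. NRT2.3, NPF6.2 and NPF6.3 (Sobic.001G541900) sit far down on the left and NRT2.1 (Sobic.004G009400) far up on the right; the 2 points with long vertical bars (NPF4.5, Sobic.007G064500, and NPF8.3, Sobic.001G275600) are near 0 CPM at day 7.

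The called members by subfamily are given as counts, and differences between subfamilies were not tested. Of all tested genes 20.3% were higher and 18.4% lower at day 4, and 17.4% and 18.2% at day 7. The higher share of NPF5 was 64.7% at day 4 and 47.1% at day 7, and the lower share of NPF2 was 71.4% and 57.1%. In either direction, NPF4 had 46.2% and 53.8% called and NPF8 43.8% and 56.2%, beside 38.6% and 35.6% of all genes. Of the 17 tested NPF5 genes, 11 were higher and 2 lower at day 4, and 8 were higher and 1 lower at day 7. NPF3 had 2 of 5 higher at day 4 and 3 at day 7, with none lower. All called NPF2 genes were lower, 5 of 7 at day 4 and 4 at day 7. NPF4 had 2 higher and 4 lower of 13 at day 4, and 1 higher and 6 lower at day 7. The peptide transporter group NPF8 had 6 higher and 1 lower of 16 at day 4, and 5 higher and 4 lower at day 7. NRT2 and NPF6 held genes that moved strongly in both directions. No NPF1 gene had enough counts to be tested.

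**Figure D2:**
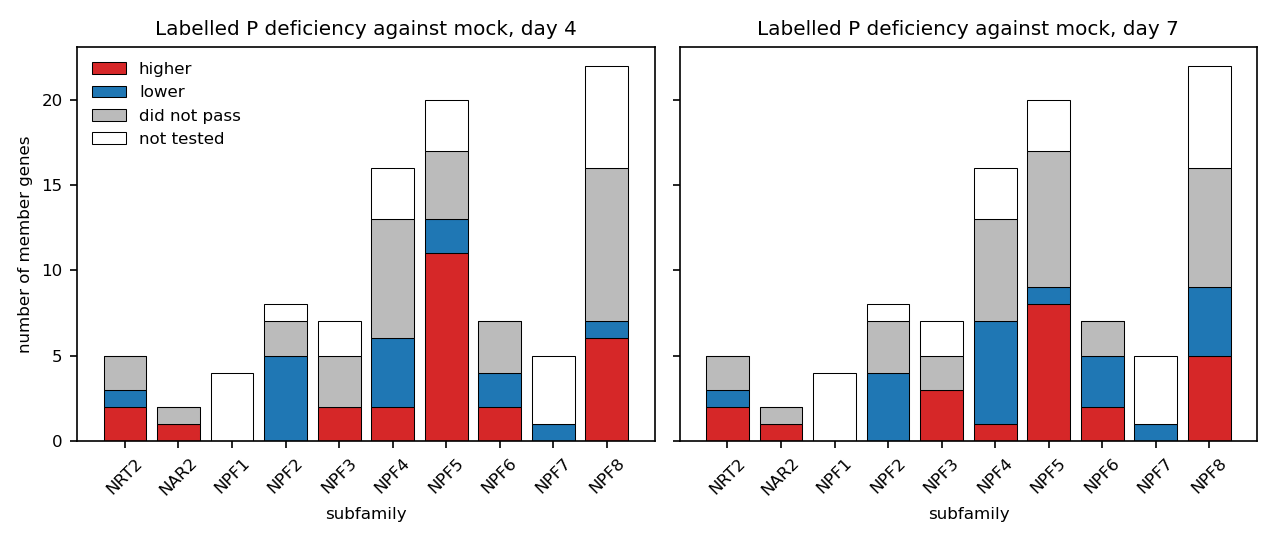
Number of member genes in each subfamily that were higher, lower, did not pass the test or were not tested, labelled P deficiency against mock, at day 4 (left) and day 7 (right). NPF5 has 11 genes higher at day 4 and 8 at day 7, where 8 others did not pass, and the called NPF2 genes are all lower (5 and 4 genes).

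The high-affinity NRT2 genes split. Rice NRT2.1 takes up nitrate from the soil together with NAR2.1, and 3 sorghum genes, Sobic.004G009200, Sobic.004G009400 and Sobic.004G009500, carry that name and lie within 3 places of each other in the RefSeq gene order of chromosome 4. NRT2.1 (Sobic.004G009400) stood at 44.0, 65.2 and 46.9 CPM at day 4 where labelled P deficiency, and at 2.91, 2.31 and 2.79 CPM in mock. At day 7 its libraries held 50.5, 27.5 and 29.7 CPM against 1.64, 0.447 and 0.923 CPM. Every library labelled P deficiency was far above every mock library. The means differed 19.5-fold at day 4 (4.28 ± 0.36 in log2, SE of 3 against 3 libraries, edgeR adjusted p = 1.31e-06) and 35.8-fold at day 7 (5.16 ± 0.39, edgeR adjusted p = 4.35e-07).

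Its neighbour Sobic.004G009500 started from a higher mock level. At day 4 it held 101, 104 and 77.3 CPM against 17.6, 13.9 and 21.4 CPM, and at day 7 101, 68.4 and 67.0 CPM against 29.5, 6.25 and 7.70 CPM. The groups did not overlap, although the first mock library of day 7 was well above the other two. The gene was 5.33-fold higher at day 4 (edgeR adjusted p = 0.00118) and 5.44-fold higher at day 7 (edgeR adjusted p = 0.00114). The third copy, Sobic.004G009200, did not pass at either day, with day 4 means of 6.92 against 10.3 CPM and day 7 means of 7.23 against 4.46 CPM (log2 fold changes -0.57 ± 0.27 and 0.70 ± 0.27). With DESeq2 or with a replicate block it was called higher at day 7 (adjusted p = 0.0311 and 0.0458), as it was without the second mock library (0.0252), and without the third day 4 library labelled P deficiency it was called lower at day 4 (0.0299). How the authors' counting divided reads that match several copies is not given, so the share of each copy is uncertain.

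NAR2.1 (Sobic.004G202400), the partner protein, moved the same way at lower fold. Day 4 gave 158, 201 and 132 CPM against 102, 85.3 and 112 CPM, and day 7 gave 135, 102 and 132 CPM against 69.7, 33.5 and 44.2 CPM. No library labelled P deficiency fell among the mock libraries of its day. The difference was 1.64-fold at day 4 (edgeR adjusted p = 0.0297) and 2.50-fold at day 7 (edgeR adjusted p = 0.000851). At day 4 the call was lost when any 1 of 5 of the 6 libraries was left out (adjusted p up to 0.154), all but the third library labelled P deficiency. The second NAR2 gene, Sobic.006G121200, stayed at or under 0.419 CPM in each library of the P table.

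NRT2.3 (Sobic.003G270800) went the other way and had the largest fold of the members that were lower at day 4. In rice, a product of NRT2.3 loads nitrate into the xylem for the shoot. Libraries labelled P deficiency held 0.274, 0.364 and 0.510 CPM at day 4, against 18.7, 15.9 and 19.2 CPM in mock. At day 7 they held 0.431, 0.790 and 0.834 CPM, against 25.4, 15.7 and 17.9 CPM. All 6 libraries labelled P deficiency were under 1 CPM and far below all 6 mock libraries. It was 46.8-fold lower at day 4 (-5.53 ± 0.30 in log2, SE, edgeR adjusted p = 2.50e-08) and 28.7-fold lower at day 7 (-4.83 ± 0.28, edgeR adjusted p = 4.79e-08). NRT2.4 (Sobic.003G188200) stayed under 0.65 CPM in all P libraries and did not pass.

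Opposite changes also appeared among 3 genes closest to NPF6.3, the dual-affinity transporter and nitrate sensor of Arabidopsis. NPF6.3 (Sobic.001G541900) was rare where labelled P deficiency, with 0.657, 1.16 and 1.58 CPM at day 4 against 33.4, 33.1 and 31.4 CPM in mock. Day 7 gave 0.801, 0.980 and 0.745 CPM against 40.8, 37.4 and 38.9 CPM. Replicates were close and the groups far apart. This gene was 28.8-fold lower at day 4 (-4.84 ± 0.23 in log2, SE, edgeR adjusted p = 8.87e-09) and 46.3-fold lower at day 7 (-5.52 ± 0.24, edgeR adjusted p = 3.57e-09), the smallest adjusted p of any member at each day.

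The more abundant NPF6.3 gene, Sobic.001G302800, was higher. It held 291, 298 and 244 CPM at day 4 against 123, 111 and 133 CPM, and 365, 246 and 338 CPM at day 7 against 109, 57.0 and 64.8 CPM. Both days showed full separation of the groups. The differences were 2.27-fold at day 4 (edgeR adjusted p = 0.000954) and 4.12-fold at day 7 (edgeR adjusted p = 1.36e-05). The third, Sobic.007G044300, was 1.38-fold higher at day 4 (112 against 80.9 CPM, edgeR adjusted p = 0.0222) and 1.55-fold higher at day 7 (63.8 against 41.2 CPM, edgeR adjusted p = 0.00432). Its day 4 call was lost whichever of the 6 libraries was left out (adjusted p 0.0508 to 0.0763). On the FPKM scale the levels of Sobic.001G541900, Sobic.001G302800 and Sobic.007G044300 averaged 15.4, 37 and 22.1 in mock and 0.441, 114 and 33.1 where labelled P deficiency.

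**Figure D3:**
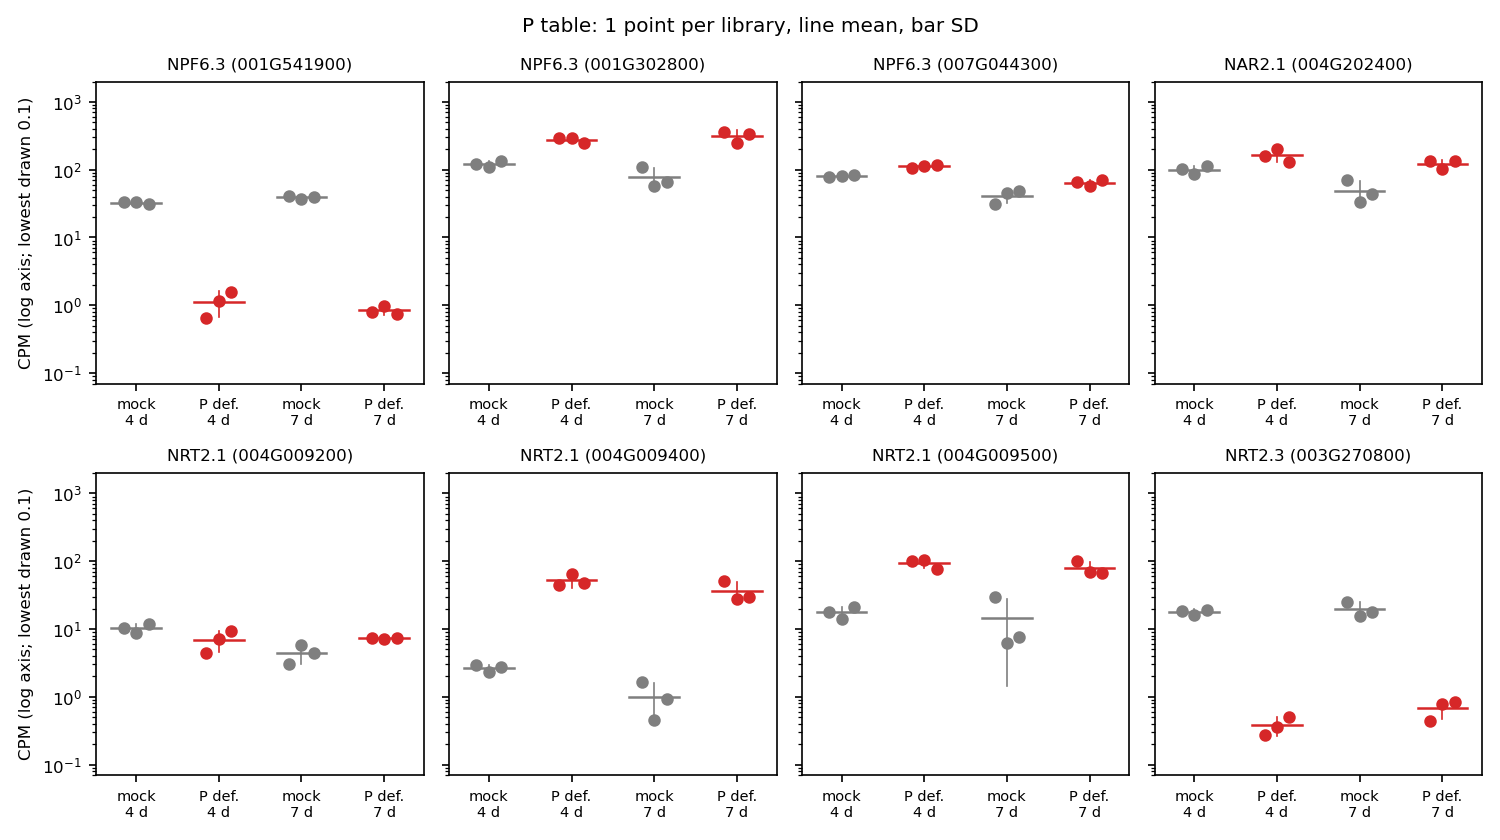
Level in CPM (log axis) of 3 NPF6.3 genes, NAR2.1, 3 NRT2.1 genes and NRT2.3 in the 12 libraries of the P table, 1 point per library, with the group mean as a line and SD as a bar. NPF6.3 (Sobic.001G541900) and NRT2.3 drop below 2 CPM in the libraries labelled P deficiency, while NRT2.1 (Sobic.004G009400) stands below 3 CPM in mock.

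Other NPF6 genes were mostly rare. NPF6.2 of Arabidopsis (NRT1.4) holds nitrate in the leaf petiole. Its sorghum counterpart, Sobic.003G185100, was at 0.219, 0.250 and 0.306 CPM at day 4 against 5.46, 9.88 and 6.43 CPM in mock, and at 0.185, 0.953 and 0.328 CPM at day 7 against 6.48, 10.8 and 5.11 CPM. The groups did not overlap, and it was 28.1-fold lower at day 4 and 15.2-fold lower at day 7 (edgeR adjusted p = 1.13e-05 and 3.59e-05). NPF6.1 (Sobic.003G107100) did not pass at day 4 and was 1.46-fold lower at day 7 (4.95 against 7.25 CPM, edgeR adjusted p = 0.0224), a call lost without any 1 of 4 libraries (the first and second of each group) or in a fit of these groups alone, with adjusted p up to 0.0800. The other NPF6.1 gene (Sobic.009G049900) and NPF6.4 (Sobic.004G193000) did not pass against mock. NPF6.4 was lower in mock at day 7 than at day 4, at 1.55 against 4.44 CPM (edgeR adjusted p = 0.0331).

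Arabidopsis NPF7.3 (NRT1.5) loads nitrate into the xylem, and of the 5 NPF7 genes only NPF7.3 (Sobic.004G276200) had enough counts in the P table. NPF7.3 genes Sobic.002G091800 and Sobic.010G133100 and the NPF7.1 gene Sobic.010G166850 had 0 counts in every library, and Sobic.004G260500 was near 0. At day 4 Sobic.004G276200 held 0.411, 0.432 and 0.357 CPM against 2.45, 9.31 and 5.31 CPM, 14.2-fold lower (edgeR adjusted p = 0.0019). At day 7 it held 0.216, 0.163 and 0.0596 CPM against 2.22, 0.223 and 0.246 CPM. There the difference (edgeR adjusted p = 0.0411) rested on the first mock library: without it the log2 fold change was -0.66 and the adjusted p 0.497. The call also went without any 1 of the 3 libraries labelled P deficiency (adjusted p 0.0703, 0.0964 and 0.130 in the order of their replicate numbers), without a filter on low counts (0.0548) and with a replicate block (0.074). In the GR table the same gene held 15.3 to 66.2 CPM.

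NPF4 proteins include carriers of abscisic acid. Arabidopsis NPF4.6 (AIT1 or NRT1.2) imports abscisic acid and carries nitrate with low affinity. The sorghum NPF4.6 gene Sobic.005G107500 held 20.8, 20.8 and 18.2 CPM at day 4 against 55.3, 68.6 and 60.6 CPM, and 14.7, 13.4 and 14.1 CPM at day 7 against 67.3, 74.8 and 63.2 CPM. Replicates within each group were tight and the groups far apart, 3.09-fold lower at day 4 and 4.86-fold lower at day 7 (edgeR adjusted p = 3.45e-07 and 1.74e-08). NPF4.3 (Sobic.008G081200) was 11.8-fold lower at day 4 and 23.8-fold lower at day 7, at 0.295 ± 0.0652 against 3.48 ± 0.303 CPM and 0.206 ± 0.106 against 4.89 ± 0.963 CPM (SD, n = 3). NPF4.5 (Sobic.005G107400) was 5.48-fold and 3.59-fold lower, from mock means of 1.77 and 1.45 CPM. NPF4.4 (Sobic.006G089300) was higher at both days, at day 4 with 14.7 against 8.26 CPM and at day 7 with 18.5 against 7.06 CPM (edgeR adjusted p = 0.00545 and 0.00015). The most abundant NPF4 gene of the P table, NPF4.3 (Sobic.005G090600), did not pass, at 0.61 ± 0.23 and -0.07 ± 0.23 in log2 fold change. At day 4 it was called higher by DESeq2 (adjusted p = 0.0426), with a replicate block (0.0479), with total counts (0.045), in a fit of these groups alone (0.0326), and without the second mock library (0.0381) or the third labelled P deficiency (0.0442).

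NPF2.11 is a glucosinolate transporter in Arabidopsis, and the called NPF2 genes were all lower. NPF2.11 (Sobic.001G133900), the second in the FPKM order of the P table, held 147, 198 and 233 CPM at day 4 against 402, 393 and 384 CPM, and 203, 175 and 194 CPM at day 7 against 287, 377 and 397 CPM. Every library labelled P deficiency was below every mock library, 2.04-fold at day 4 and 1.85-fold at day 7 (edgeR adjusted p = 0.000333 and 0.000995). Among the rarer NPF2 genes, NPF2.13 (Sobic.006G251200), close to an Arabidopsis transporter that moves nitrate out of old leaves through the phloem, was 5.56-fold and 7.37-fold lower from mock means of 1.97 and 2.02 CPM.

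NPF5 held more of the higher calls than any other subfamily at each day. Arabidopsis NPF5.2 is a peptide transporter (PTR3), and NPF5.2 (Sobic.001G223100) held 100, 66.2 and 91.8 CPM at day 4 against 24, 20.6 and 18.9 CPM. At day 7 it held 80.1, 92.2 and 73.8 CPM against 27.0, 20.1 and 24.6 CPM. The groups were far apart, with 4.07-fold and 3.44-fold higher means (edgeR adjusted p = 1.56e-06 and 4.16e-06). Its RefSeq neighbour Sobic.001G223200 was 1.69-fold higher at day 4 (6.35 against 3.76 CPM) and did not pass at day 7. Another NPF5.2 gene, Sobic.001G511000, was 2.55-fold higher at day 4 and 2.63-fold at day 7, at 102 against 39.9 CPM and 176 against 66.8 CPM.

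Of the NPF5.10 genes, the dominant one, Sobic.003G371000, was 1.44-fold higher at day 4 and 2.44-fold higher at day 7. Its day 4 libraries overlapped, with 445, 404 and 301 CPM against 305, 270 and 225 CPM, and that call (edgeR adjusted p = 0.0318) was lost without any 1 of 4 libraries, the second or the third of mock or the first or second labelled P deficiency (adjusted p up to 0.166). At day 7 it held 1152, 976 and 1116 CPM against 483, 355 and 491 CPM, with no overlap (edgeR adjusted p = 0.000103). Another NPF5.10 gene, Sobic.006G279700, was 2.39-fold and 2.04-fold higher (edgeR adjusted p = 2.47e-05 and 0.000127), and Sobic.003G371750 was 1.78-fold and 1.40-fold higher, its day 7 call lost without the second mock library or the third labelled P deficiency (adjusted p 0.0763 and 0.0716).

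NPF5.10 (Sobic.003G371100) was the only member whose response differed between the days in the edgeR interaction test. It held 3.18, 2.41 and 1.12 CPM at day 4 against 0.889, 0.869 and 0.625 CPM, and 63.6, 39.9 and 69.7 CPM at day 7 against 3.35, 3.24 and 4.0 CPM. The groups did not overlap at either day, and the day 7 libraries labelled P deficiency were by far the highest. It was 2.82-fold higher at day 4 and 16.4-fold higher at day 7, and the difference between these responses was 2.54 ± 0.47 on the log2 scale (edgeR adjusted p = 0.0349; 0.0674 with a replicate block). That call, 1 of 73 members beside 0.465% of all tested genes, was lost in 8 of the 12 fits that left out 1 library (adjusted p up to 0.124). The deposited table gives this gene and Sobic.003G371000 the same RefSeq symbol, so reads may have been divided between them. An unadjusted edgeR p under 0.05 for this difference was found for 11 of the 73 members, beside 8.32% of all tested genes. After adjustment DESeq2 called 2 members higher and 3 lower (0.875% and 0.835% of all genes). The shares of all genes called were 0.267% and 0.199% by edgeR, and 0.183% higher with the block. Without the first day 7 mock library, NPF6.3 (Sobic.001G302800) was called too (1.23 in log2, adjusted p = 0.0288).

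In mock alone, 5 of 73 members (6.85%) differed between day 7 and day 4, beside 1.34% of all tested genes (0.847% higher and 0.497% lower). NPF5.10 (Sobic.003G371100) was higher at day 7, at 3.53 against 0.794 CPM. Lower at day 7 were NPF6.3 (Sobic.007G044300), at 41.2 against 80.9 CPM, NPF8.3 (Sobic.001G275500), at 1.19 against 3.6 CPM, NPF6.4 and NPF4.5 (Sobic.007G064500), the last at 0.105 against 1.30 CPM. These counts moved between 0 and 1 higher and between 1 and 11 lower as single libraries were left out. The 11 lower of 73 came without the first day 7 mock library, beside 436 of 25510 genes. DESeq2 gave 3 higher and 9 lower (2.08% and 1.48% of all genes), the block 2 lower (0.366%) and a fit of the 2 groups alone 1 lower (0.336%).

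NPF8 and NPF3 complete the families. NPF8.3 of Arabidopsis (PTR2) carries dipeptides and tripeptides. NPF8.3 (Sobic.001G443900) was 3.70-fold higher at day 4 and 2.11-fold at day 7, at 35.2 against 9.51 CPM and 16.6 against 7.85 CPM (edgeR adjusted p = 7.74e-05 and 0.00467). In contrast, NPF8.3 (Sobic.001G282000) held 36.0, 37.3 and 32.4 CPM at day 4 against 77.3, 79.7 and 79.0 CPM, and 38, 40.1 and 45.6 CPM at day 7 against 90.6, 98.7 and 109 CPM. This gene was lower in every library labelled P deficiency, 2.23-fold and 2.41-fold (edgeR adjusted p = 3.83e-06 and 1.55e-06), while its neighbour Sobic.001G282100 passed only at day 7, at 72.2 against 108 CPM (edgeR adjusted p = 0.00459). At day 4 it stood at 90.0 against 113 CPM (0.0698), and it was called lower without the second library labelled P deficiency (0.0194). NPF8.3 (Sobic.002G367700) was higher at both days, by 0.67 and 0.54 in log2. NPF8.3 (Sobic.001G275500), in the largest run of neighbouring members with 9 NPF8 genes on chromosome 1, was 3.18-fold and 4.0-fold higher. Arabidopsis NPF3.1 carries gibberellin in the root endodermis, and NPF3.1 (Sobic.010G109200) was 5.42-fold and 5.40-fold higher, at 11.1 against 2.05 CPM and 14.7 against 2.73 CPM (edgeR adjusted p = 0.00027 and 0.000238). In all, 37 members lay in 11 runs of neighbours at most 3 places apart, where similar copies may share reads.

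GR245DS gave no member past the threshold in the edgeR fit without a replicate term, at either time. Of 76 tested members, 11 at 3 h and 8 at 6 h had an unadjusted p under 0.05, beside 7.91% and 6.15% of all tested genes. With a replicate block 16 and 18 members had such a p. The share of all genes was not computed for that fit, so the 16 and 18 are not set apart from it. Median log2 fold changes were 0.06 at 3 h and -0.04 at 6 h over the members, and -0.02 and -0.03 over all genes. Of all genes, 1.01% were called at 3 h (0.995% higher, 0.0121% lower) and 0.484% at 6 h (0.48% higher, 0.00403% lower). Libraries of the same replicate number deviated together in this table, and with the replicate number as a block 4 members were higher and 1 lower at 3 h, and 4 higher at 6 h (backgrounds 2.56% higher and 0.576% lower at 3 h, 1.53% higher and 0.52% lower at 6 h). DESeq2 without a block called 4 higher and 1 lower at 3 h and 2 higher at 6 h (backgrounds 2.14%, 0.290% and 1.13%). No member's response differed between 3 h and 6 h and none differed between the mock groups by edgeR with or without the block or by DESeq2. An unadjusted p under 0.05 was found for 2 and 3 members without the block or by DESeq2, and for 5 and 9 with the block. Over all genes the shares were 1.16% and 1.39% by edgeR without the block. They were not computed with the block or for DESeq2.

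Both times shared 2 of the members called with the block. NPF4.4 (Sobic.006G089300) held 32.4, 29.2 and 30 CPM with GR245DS at 3 h against 21.7, 15.6 and 19.1 CPM, and 30.3, 29.7 and 29.1 CPM at 6 h against 20.7, 14.6 and 18.9 CPM. All treated libraries were above all mock libraries. Its log2 fold changes were 0.71 ± 0.13 and 0.73 ± 0.13 (block, edgeR adjusted p = 0.0127 and 0.0159; 0.0936 and 0.133 without the block). NPF8.3 (Sobic.001G282100) held 328, 348 and 299 CPM at 3 h against 184, 194 and 247 CPM, and 304, 308 and 340 CPM at 6 h against 156, 193 and 214 CPM. Again the groups did not overlap, with log2 fold changes of 0.66 ± 0.14 and 0.77 ± 0.14 (block, edgeR adjusted p = 0.0316 and 0.0193; 0.137 and 0.0914 without). Neighbouring Sobic.001G282000 had log2 fold changes of 0.29 ± 0.18 and -0.01 ± 0.18 without the block and was not called.

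At 3 h the block also called NPF3.1 (Sobic.009G136700), at 2.70, 2.46 and 2.63 CPM against 1.05, 0.836 and 0.426 CPM, and NPF4.4 (Sobic.007G081300), at 10.4, 18.2 and 5.95 CPM against 5.28, 4.20 and 3.84 CPM, as higher (edgeR adjusted p = 0.0282 for each; 0.0797 and 0.122 without). NPF4.3 (Sobic.006G130400) was lower, at 4.41, 4.68 and 6.2 CPM against 9.0, 13.5 and 11.9 CPM (0.0401; 0.184 without). In these 3 genes the groups did not overlap. They were named after their values were seen. At 6 h the block added NRT2.3 (Sobic.003G270800), at 12.2, 10.2 and 3.47 CPM against 5.21, 3.08 and 1.59 CPM, and NPF4.6 (Sobic.005G107500), at 96.5, 72.9 and 48.4 CPM against 59.5, 61.0 and 26.9 CPM (edgeR adjusted p = 0.0386 and 0.0411; 0.913 and 1 without). For both, the third libraries of treated and mock roots stood below the others and each treated library was above the mock library of its number.

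The libraries of replicate 3 stood apart for several nitrate uptake genes in the GR table. NRT2.1 (Sobic.004G009500) held 337, 325 and 83.5 CPM in mock at 3 h and 393, 455 and 71.0 CPM with GR245DS. At 6 h it held 292, 395 and 104 CPM in mock and 720, 639 and 142 CPM with GR245DS. The library of replicate 3 was the lowest of each of the 4 groups, and the log2 fold change at 6 h was 0.92 ± 0.80 without the block (edgeR adjusted p = 1) and 0.80 ± 0.19 with it (0.0600). NPF6.3 (Sobic.001G302800) held 390 to 720 CPM in the first and second libraries and 61.5 to 122 CPM in the third, and did not pass. Averaged over the 4 groups, the first and second libraries exceeded the third 6.06-fold for this NPF6.3 gene, 5.92-fold for NRT2.1 (Sobic.004G009400), 4.44-fold for Sobic.004G009500, 3.0-fold for NAR2.1 and 2.23-fold for NPF2.11 (Sobic.001G133900). NPF5.2 (Sobic.001G223100) went the other way, 2.72-fold higher in the third.

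Over all members, such patterns were about as frequent as over all genes. The third library was the lowest in all 4 groups for 14 of the 76 members (18.4%, beside 16.3% of all tested genes) and the highest for 9 (11.8%, beside 15.9%). Leaving out the third libraries of all groups, a setting chosen after seeing the data like the count above, gave 2 higher at 3 h (beside 1.4% of all genes), and with the block 2 at 3 h (2.23%) and 2 at 6 h (0.869%). NPF8.3 (Sobic.001G282100) was called at 3 h without a block (edgeR adjusted p = 0.0302), and with the block also at 6 h (0.0277), where NRT2.1 (Sobic.004G009500) was called as well (0.0425). NPF4.4 (Sobic.006G089300) was not called in either of these fits.

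**Figure D4:**
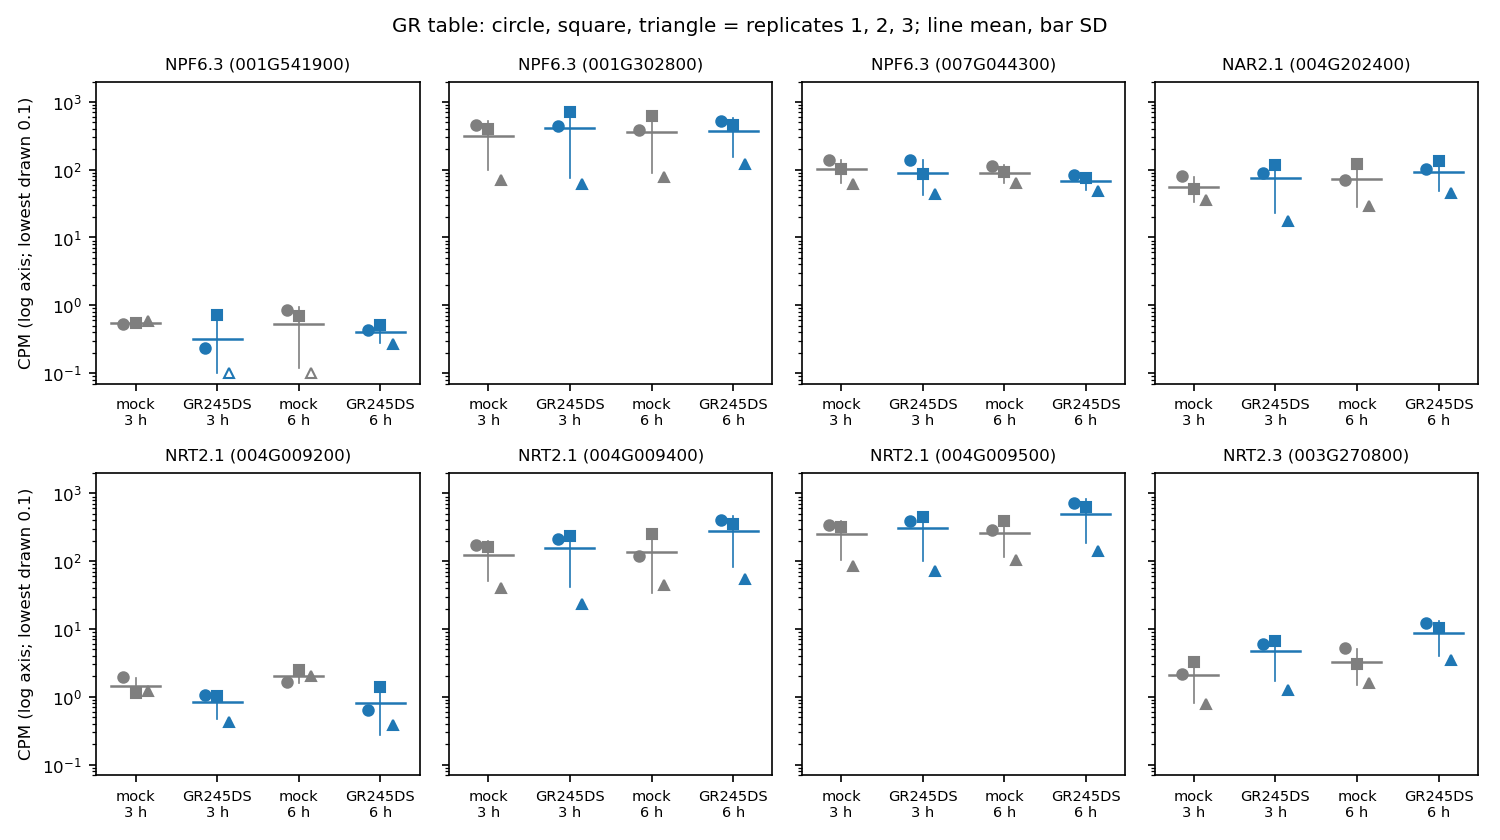
Level in CPM (log axis) of the same 8 genes in the 12 libraries of the GR table, circles, squares and triangles marking replicates 1, 2 and 3, lines the group mean and bars the SD; open symbols are values under 0.1 CPM, drawn at 0.1. The triangles of NPF6.3 (Sobic.001G302800), both abundant NRT2.1 genes and NAR2.1 lie below the other points of every group.

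The tables were normalized separately and come from different experiments, so levels across them are given side by side only, a comparison added after seeing the data. For 11 of the 34 members called alike at both days of the P table, all 12 libraries of the GR table lay on the side of the libraries labelled P deficiency, where a side is set by the geometric midpoint of that group and mock on the FPKM scale. For 4 they all lay on the mock side, and 19 were mixed. The same count was not made over all genes called alike at both days, so these numbers are not set apart from it. NPF6.3 (Sobic.001G541900) was at 0 to 0.386 FPKM in the GR table, beside means of 15.4 for mock and 0.441 for libraries labelled P deficiency. NRT2.1 (Sobic.004G009400) was at 10 to 176 FPKM, beside 0.809 and 20.2. NPF7.3 (Sobic.004G276200), at 3.38 to 14.1 FPKM beside 0.723 and 0.0600, and NPF5.10 (Sobic.003G371100), at 0.0167 to 0.419 beside 0.791 and 11.5, were on the mock side throughout.

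**Figure D5:**
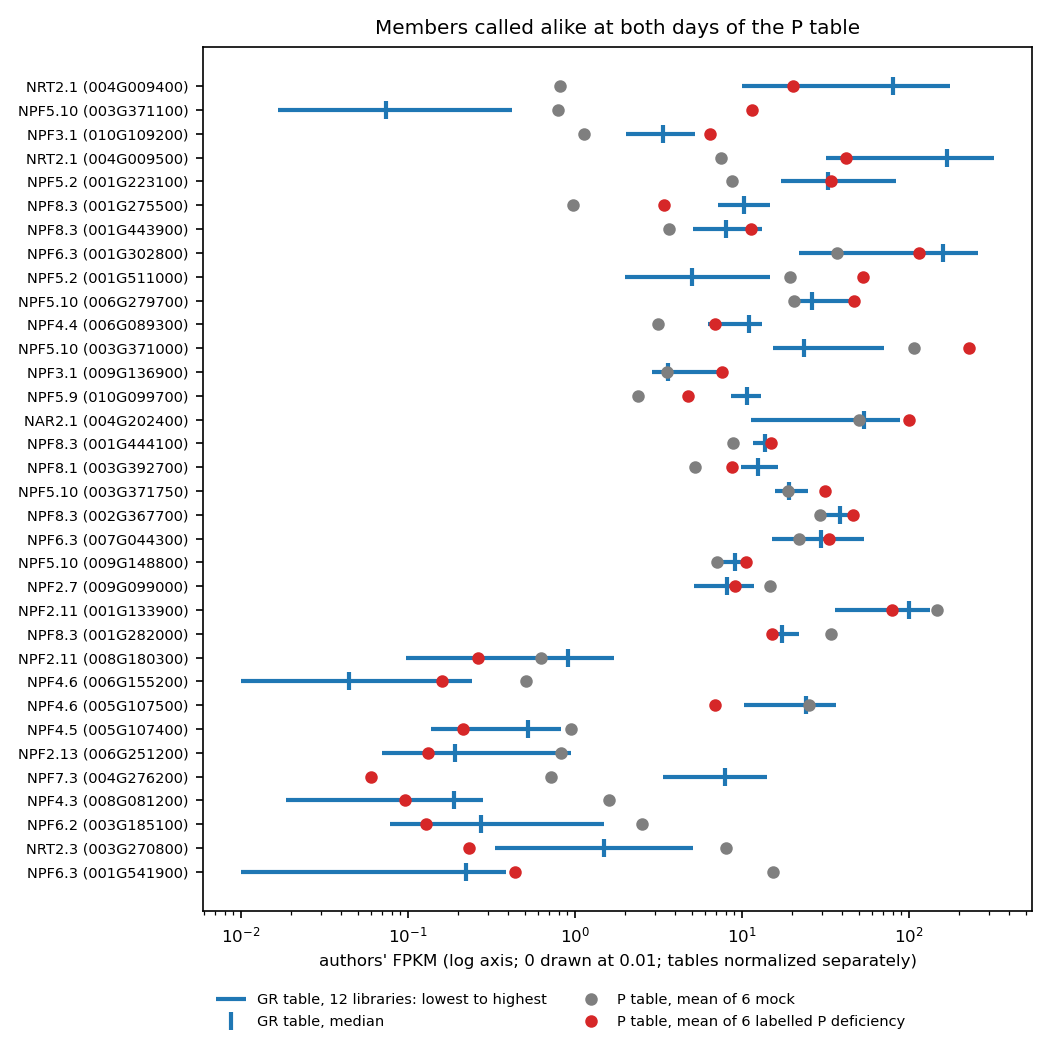
Authors' FPKM (log axis) of the 34 members called alike at both days of the P table: grey and red points are means of 6 libraries labelled mock and P deficiency, blue lines run from the lowest to the highest of the 12 libraries of the GR table with the median as a tick and 0 drawn at 0.01. Blue lines of NPF6.3 (Sobic.001G541900) and NPF4.3 (Sobic.008G081200) cover the red side, and that of NPF7.3 lies above both points.

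Regulators of nitrate responses were listed by words in their descriptions. Of 21 tested, 7 were higher and 9 lower at day 4 (33.3% and 42.9%, beside 20.3% and 18.4% of all genes), and 6 higher and 8 lower at day 7 (28.6% and 38.1%, beside 17.4% and 18.2%). NIGT1 (Sobic.008G036900), a repressor of NRT2.1 transcription in Arabidopsis, held 6.79, 8.55 and 8.27 CPM at day 4 against 170, 189 and 196 CPM, and 7.18, 5.64 and 6.58 CPM at day 7 against 231, 200 and 187 CPM. It was 23.5-fold and 31.8-fold lower (edgeR adjusted p = 2.19e-10 and 1.31e-10), the groups far apart. The HHO and NIGT factors of this list did not all fall. In raw counts, HHO3 (Sobic.001G078900) held 6966, 8000 and 4861 at day 4 against 2108, 2043 and 2846 in mock. At day 7 it held 5414, 5892 and 7286 against 4080, 3263 and 2293. NIGTH1 (Sobic.003G046800) held 633, 572 and 569 at day 4 against 632, 892 and 669. Its day 7 counts were 603, 713 and 533 against 1320, 1721 and 865. The protein kinase CIPK23 (Sobic.002G034700), which phosphorylates NPF6.3 in Arabidopsis, was 5.85-fold and 3.12-fold lower (12 against 70.0 CPM and 11.5 against 35.9 CPM). LBD41 (Sobic.001G338600) was 8.62-fold and 3.30-fold lower, while LBD37 (Sobic.001G169200), a repressor of nitrogen-responsive genes in Arabidopsis, was 2.84-fold and 3.73-fold higher, at 274 against 96.7 CPM and 222 against 59.4 CPM.

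Of 21 tested assimilation genes, 7 were higher and 3 lower at each day, or 47.6% called beside 38.6% and 35.6% of all genes. The lower share of 14.3% was under that of all genes at both days. Glutamate dehydrogenase 2 (Sobic.006G165400) was 2.78-fold and 4.15-fold higher, and another glutamate dehydrogenase gene (Sobic.001G059100) was 1.72-fold and 2.94-fold lower. NADH-dependent glutamate synthase 2 (Sobic.009G225700) was 2.22-fold and 1.52-fold higher, its day 7 call lost without the first mock library or the third labelled P deficiency (adjusted p 0.0614 and 0.0878). Glutamine synthetase root isozyme 1 (Sobic.001G451500), which binds ammonium into glutamine, was 1.60-fold and 2.91-fold higher, its day 4 call lost without any 1 of 4 libraries, the second or the third of mock or the first or second labelled P deficiency (adjusted p up to 0.105). Asparagine synthetase 1 (Sobic.001G406800) was 3.04-fold lower at day 4, at 458 against 1394 CPM, and stood at 885 against 793 CPM at day 7 (log2 fold change 0.16 ± 0.28).

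Of 5 tested ammonium transporters, 1 was higher and 2 lower at day 4, and 2 were lower at day 7 (60% and 40% called, beside 38.6% and 35.6% of all genes). The ammonium importer AMT1 member 2 (Sobic.004G217800) was 9.08-fold and 9.73-fold lower, at 11.7 against 106 CPM and 8.96 against 87.2 CPM (edgeR adjusted p = 1.43e-06 and 1.08e-06). AMT1 member 1 (Sobic.006G143100) was 1.88-fold and 1.59-fold lower, and AMT2 member 2 (Sobic.003G344700) was 2.26-fold higher at day 4. Among 15 tested anion channels of the SLAC and CLC families, 2 were lower and none higher at day 4, 13.3% called beside 38.6% of all genes. At day 7, 4 were higher and 3 lower, 46.7% beside 35.6%. SLAH2 (Sobic.009G248600), a nitrate-permeable channel in Arabidopsis, was 4.54-fold and 5.62-fold lower, and the chloride channel protein CLC-f (Sobic.004G257800) 1.52-fold and 1.76-fold lower. Of the higher ones, SLAH3 (Sobic.003G225600) and SLAH1 (Sobic.003G000400) were 2.58-fold and 2.21-fold higher at day 7 and did not pass at day 4.

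With GR245DS, 1 gene of these 4 groups passed at each time in the edgeR fit of all 12 libraries without a block. It was 1 of 21 tested regulators (4.76%), beside 1.01% of all genes at 3 h and 0.484% at 6 h. Of the other lists, 0 of 21 assimilation genes, 0 of 6 ammonium transporters and 0 of 15 anion channels passed at either time. BTB/POZ and TAZ domain protein 3 (Sobic.003G385100) was 2.24-fold higher at 3 h, at 46.7 against 20.9 CPM, and 1.99-fold higher at 6 h, at 37.5 against 18.8 CPM (edgeR adjusted p = 0.00593 and 0.0231). The 6 h call was lost without any 1 of 5 libraries, all but the first treated one, and without the third libraries of all groups (adjusted p up to 0.133 and 0.0649), and in a fit of these groups alone (0.141). AMT1 member 1 averaged 51.6 against 16.7 CPM at 3 h and was called with the block (edgeR adjusted p = 0.00925, and 0.0907 without). Without a block it was also called by DESeq2 (adjusted p = 0.00247). The same held by edgeR without the third treated library of 3 h (0.0214) or without the third libraries of all groups (0.00725).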

How the data were processed

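Per the labels' protocols, RNA from roots (RNAprep Pure Plant Kit, 1 µg a sample) was made into libraries with a Hieff NGS Ultima Dual-mode mRNA kit. The submitters' processing notes name fastp, HISAT2, featureCounts and DESeq2 1.22.1 but no role or order. The genome build, the strandedness and the treatment of multiply matching reads are not stated in any source used here. Per the file headers, the deposited columns used here hold a raw count and an FPKM made by the authors, per gene and library. FPKM served only for levels between genes and across tables.

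Counts were fitted with edgeR 4.0.16 (limma 3.58.1, R 4.3.3): TMM scaling, filterByExpr, robust quasi-likelihood F-tests with 1 mean per group over the 12 libraries of a table, and Benjamini-Hochberg adjustment over all 25137 (P) or 24814 (GR) genes tested at 0.05. CPM come from the same scaling, and folds are ratios of group means. Precision is limited by 3 libraries per group and a common dispersion of 0.0408 (P) and 0.136 (GR). The script was tested on simulated data.

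The members and the lists of related genes (matched by words in the descriptions, with glutamate synthase restricted to whole words after folylpolyglutamate synthase genes were seen to match) were chosen with earlier results of these data known. Named were all NRT2, NAR2, NPF6 and NPF7 genes, the 8 members with the smallest adjusted p per direction and treatment comparison, members called in an interaction, the 5 highest by mean FPKM per table, and up to 3 called genes per related list and comparison. Other genes are named where a count or neighbour pointed to them after their values were seen. Neighbours come from the RefSeq table of NCBIv3, matched through the authors' symbols (81 members).

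Whether replicate numbers pair the libraries was decided from correlations of same-numbered deviations from the group means. In the GR table they were 0.231 to 0.789 between treated and mock roots at each time and between the mock groups. The numbers were therefore taken to pair the samples there, and blocked values stand beside the GR results. No label states a pairing, and neither libraries of different numbers nor the treated groups of 3 h and 6 h were compared in this way. Alternatives were RLE scaling, total counts only, DESeq2 1.42.0, no filter, at least 30 reads in 3 libraries, the replicate block, only the groups compared, at least 2-fold, and leaving out each library in turn.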

Additional observations from a re-analysis of the deposited data

Results flagged for a closer look

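Among the transporters and their related genes, 4 had a response to the libraries labelled P deficiency that differed between day 7 and day 4 in the edgeR interaction test. NPF5.10 (Sobic.003G371100) differed by 2.54 on the log2 scale, rising more at day 7 (edgeR adjusted p = 0.0349). The anion channel genes SLAH1 (Sobic.003G000400) and SLAH3 (Sobic.003G225600) differed by 1.502 and 1.49 (edgeR adjusted p = 0.0432 and 0.0349). The day 7 fold of each was above and the day 4 fold below mock, the latter at -0.36 ± 0.20 and -0.13 ± 0.19 without passing. Mock differed between the days too. In raw counts, SLAH1 held 705, 1167 and 1034 in mock at day 4 and 658, 614 and 298 at day 7. Libraries labelled P deficiency held 841, 856 and 881, then 916, 1116 and 921. SLAH3 held 798, 1415 and 1198 in mock, then 780, 755 and 393. With the P deficiency label it held 1103, 1249 and 1215, then 1457, 1402 and 1365. CIPK23 (Sobic.002G034700) differed by 0.91 (edgeR adjusted p = 0.0349), its fold being smaller at day 7, where mock itself stood at 35.9 against 70.0 CPM at day 4. None of these 4 calls held with a replicate block (adjusted p 0.0674 to 0.0814), and that of SLAH1 was also lost with scaling by total counts (0.0541). Leaving out 1 of the 12 libraries ended the call in 8 fits for NPF5.10, 10 each for SLAH1 and SLAH3 and 9 for CIPK23. Some related genes gained a call instead. Asparagine synthetase 1 (Sobic.001G406800) was called by DESeq2 (adjusted p = 0.00195) and by edgeR without the first day 7 mock library (0.0070). LBD41 (Sobic.001G338600) was called by DESeq2 (0.000814), and by edgeR without a filter on low counts (0.0442) or without the third day 4 library labelled P deficiency (0.00364).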

How the results depend on the processing

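The counts of members higher and lower at day 7 and lower at day 4 of the P table stayed within 1.5 times of 22, 20 and 16 under all alternatives run. Members higher at day 4 numbered 26, 13 at 2-fold or more, and 17 to 24 as single libraries were left out. The 17 came without the first day 4 library labelled P deficiency, where 3427 of 25558 genes were higher. For the interaction, against 1 higher and 0 lower, DESeq2 gave 2 and 3, the replicate block 0 higher, and leaving out libraries 0 to 2 higher, 2 without the first day 7 mock library, which added NPF6.3 (Sobic.001G302800). In mock, day 7 against day 4, against 1 higher and 4 lower, DESeq2 gave 3 and 9. The replicate block gave 2 lower and the compared groups alone 1 lower. Leaving out libraries gave 0 to 1 higher and 1 to 11 lower. The 11 came without the first day 7 mock library, where 436 of 25510 genes were lower. Same-numbered P libraries correlated at -0.257 to 0.2, so the numbers were not taken to pair them. The block lost the interaction call. For GR245DS, against 0, DESeq2 and the replicate block gave 4 higher and 1 lower at 3 h, and 2 and 4 higher at 6 h; leaving out libraries gave 0 to 1 higher at 3 h (1 without the third treated library), leaving out replicate 3 of all groups 2 at 3 h, and with the block 2 at each time. Scaling by total counts alone moved the GR medians of all genes to -0.15 and -0.11 and called no member. Of 4623 values of named genes under alternatives, 4501 kept their side of the threshold, 83 lost a call and 39 gained one. Of the values called in either fit, 0 reversed direction. Any change of sign in a value called in neither fit was counted among the 4501. The causes were not tested. Depth limits genes under about 0.1 CPM.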
